A study of Mus musculus with 87 samples.

Results

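The early response of mouse liver to sham surgery was examined by setting operated livers beside unoperated livers of the same hour of day. The comparison used 5 livers taken 4 h after sham surgery (S4) and 3 livers taken at that hour from mice that were not operated on (C4), chosen by their labels and column names. These were 8 of the 80 liver libraries analysed. All mice were C57BL/6 males of 12 to 14 weeks, entrained to light and dark with food in the dark phase only. The S4 mice had a laparotomy under isoflurane at ZT2 (ZT0 is lights on), with each step of a partial hepatectomy except the resection, and their livers were collected at ZT6. The C4 mice had no operation and their livers were also collected at ZT6, so that the contrast of S4 with C4 holds the hour constant. However, anaesthesia, the painkiller that the paper mentions, incision and handling cannot be told apart. Each library was poly(A) RNA of 1 liver, a mixture of all its cell types, and p values measure the spread between livers.

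Surgical injury sets off the acute-phase response, in which cytokines from macrophages, above all IL-6, IL-1 and TNF, act on hepatocytes through STAT3, C/EBP and NF-kB and redirect secretion towards defence proteins such as serum amyloid A, while several plasma carrier proteins are made less. Handling and anaesthesia also raise glucocorticoids, which act through a nuclear receptor on hepatocyte metabolism and on the clock gene Per1. The liver clock itself is a loop in which BMAL1 (Arntl) and CLOCK drive their own repressors and output genes such as Dbp, whose transcript rises during the light phase.

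The 250 bases before the transcription start are shown for 5 of the 15 genes with the largest rises, chosen after the matches were seen because each holds a word of at least 1 of the 3 factor families named above. Capitals mark the words TTGCNNAA (C/EBP), TTCNNNGAA (STAT) and, for NF-kB, GGG and TTTCC around any 2 bases, searched on both strands. Sequences are from RefSeq on GRCm38.p6 and are written 5′ to 3′ on the strand of the gene. The windows were Saa1 at chr7:46742981-46743230 (minus strand), Saa2 at chr7:46751583-46751832 (plus), Lcn2 at chr2:32387740-32387989 (minus), Steap4 at chr5:7960222-7960471 (plus) and Cxcl1 at chr5:90890995-90891244 (plus).
Saa1: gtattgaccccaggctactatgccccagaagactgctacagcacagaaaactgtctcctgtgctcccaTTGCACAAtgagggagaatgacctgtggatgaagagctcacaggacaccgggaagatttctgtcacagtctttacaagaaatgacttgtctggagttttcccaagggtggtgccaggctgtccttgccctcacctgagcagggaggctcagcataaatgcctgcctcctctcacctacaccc
Saa2: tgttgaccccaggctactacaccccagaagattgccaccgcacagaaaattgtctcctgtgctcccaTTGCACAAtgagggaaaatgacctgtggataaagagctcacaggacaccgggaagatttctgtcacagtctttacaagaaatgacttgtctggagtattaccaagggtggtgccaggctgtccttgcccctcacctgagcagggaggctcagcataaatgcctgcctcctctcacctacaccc
Lcn2: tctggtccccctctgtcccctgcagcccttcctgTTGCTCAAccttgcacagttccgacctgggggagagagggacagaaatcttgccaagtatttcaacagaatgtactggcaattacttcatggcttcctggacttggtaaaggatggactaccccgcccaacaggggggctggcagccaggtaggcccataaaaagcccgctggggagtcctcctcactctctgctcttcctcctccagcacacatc
Steap4: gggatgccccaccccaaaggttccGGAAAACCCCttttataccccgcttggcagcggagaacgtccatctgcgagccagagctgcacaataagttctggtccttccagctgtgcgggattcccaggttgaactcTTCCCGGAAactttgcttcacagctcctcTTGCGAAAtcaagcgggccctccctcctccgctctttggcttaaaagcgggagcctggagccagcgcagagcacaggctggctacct
Cxcl1: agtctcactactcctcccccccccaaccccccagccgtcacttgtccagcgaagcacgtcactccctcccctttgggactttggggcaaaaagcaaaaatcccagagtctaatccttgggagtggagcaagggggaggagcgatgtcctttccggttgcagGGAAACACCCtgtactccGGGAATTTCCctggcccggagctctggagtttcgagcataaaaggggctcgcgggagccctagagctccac
Saa1 and Saa2 carried the same C/EBP word, TTGCACAA, starting 182 and 183 bases before the start, and Lcn2 carried TTGCTCAA at 216 bases. Steap4 had an NF-kB word at 226, a STAT word at 116 and a C/EBP word at 87 bases before the start, none of which overlap. In Cxcl1 both words were of NF-kB, at 89 and 71 bases. Mt1 and Cdkn1a, which rose more than Steap4 and Cxcl1, held none of these words. In windows of 300 bases around the start (250 before and 50 after), TTGCNNAA was found in 15 of the 27 acute-phase genes with a window and in 12.2% of 27025 genes. Genes that were lower in S4 or not called held it as well, among them Alb, Apoa2, Rbp4, Fabp1 and Cyp3a25. The NF-kB word was found in 7 of the 20 NF-kB list genes with a window and in 1.89% of all genes. TTCNNNGAA was found in 7 of the 27 acute-phase genes and in 9.55% of all genes. It was in 2 of the 20 IL-6 and STAT3 list genes and 5 of the 22 glucocorticoid-responsive genes with a window. These are matches of letters only, and whether a factor bound them was not measured.

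Transcript levels were log2 RPKM (reads per kilobase of exon, scaled to the library's total), and differences were tested on log2(RPKM + 0.25) with limma. A gene was called when the adjusted p was below 0.05 and the log2 fold change beyond 0.5. Of 15396 genes tested, 6663 were called (43.3%), with 1886 higher in S4 (12.2%) and 4777 lower (31.0%). The values of the 5 S4 and 3 C4 livers did not overlap in 8077 genes (52.5%). The excess of lower genes was smaller among large differences, with 160 genes higher and 185 lower by more than 2 log2 units, and 46 higher and 26 lower by more than 3. The median of all genes stood at −0.22, and with each library scaled to the same median the split became 2889 higher and 3387 lower. Counts of each list below are therefore to be read beside 12.2% higher and 31.0% lower. Those with the same median are to be read beside 2889 higher and 3387 lower of 15396.

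S4 and C4 were collected in different experimental periods of the study, and this bears on each result below. The unoperated livers at 0 h (C0, ZT2, n = 9) cover the periods of both groups, so that a term for period could be fitted to S4, C4 and C0 alone, with replicate numbers assigned to periods in consecutive order, which was an assumption. With that term 5100 genes were called (33.1%), 1005 higher (6.53%) and 4095 lower (26.6%). List counts with the term are to be read beside these shares. Of the 6663 genes, 3875 were called in the same direction with the term and 345 changed sign. A small RNA model in these poly(A)-selected libraries, mmu-mir-689-2, chosen after its values were seen and so no independent support for the assumed periods, stood at 9.42, 10.46 and 10.41 log2 RPKM in S4 replicates 1 to 3, 13.11 and 13.51 in replicates 4 and 5, and 14.38, 14.01 and 14.25 in C4. Estimated depth was 20.1 to 23.4 M (mega) reads in C4 and 27.2 to 48.8 M reads in S4. The difference of 14.5 M reads had a two-sided exact permutation p of 0.0357, the smallest that this test of 5 against 3 libraries can give. Its part in the results was not tested.

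**Figure D1:**
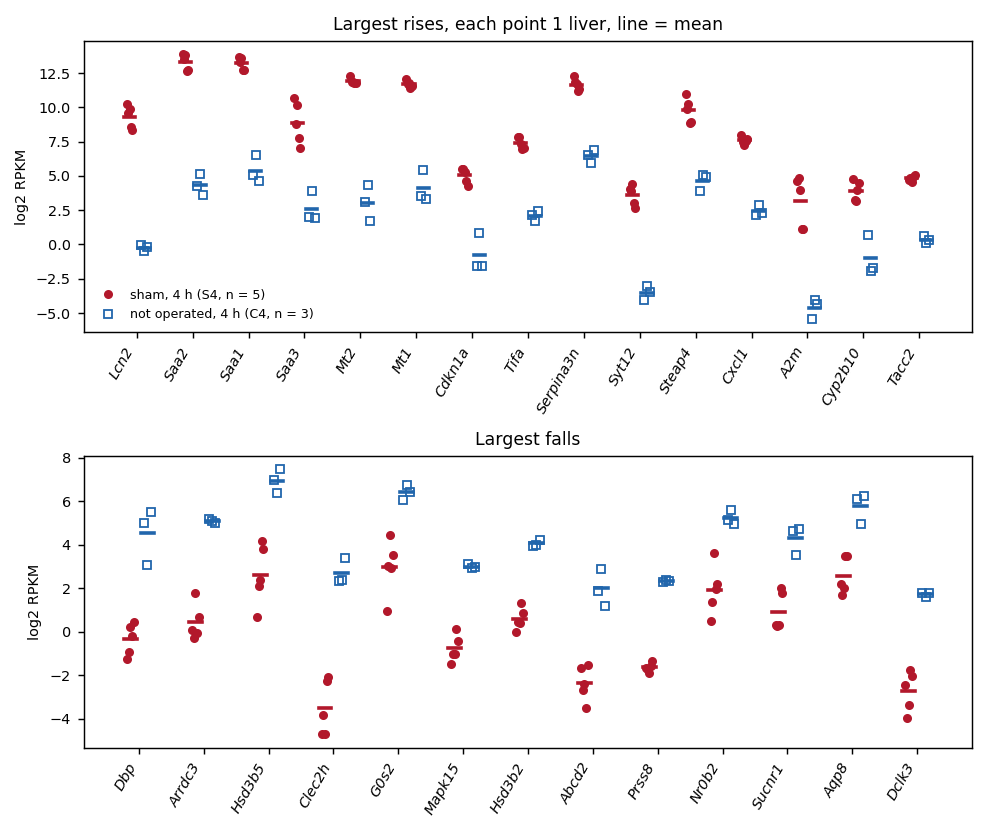
Log2 RPKM in each of the 5 S4 livers (filled circles) and 3 C4 livers (open squares), with lines at the group means, for the genes with the largest rises (top) and falls (bottom) named by rule, without the small RNA models. Lcn2 lies between 8.37 and 10.24 in S4 and between −0.47 and −0.06 in C4. The rule took only genes without overlap between the groups, so the absence of overlap here is not a result.

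The acute-phase programme was the most uniform change. Of 38 acute-phase genes tested, 35 were higher in S4 and 1 was lower, with a median log2 fold change of 2.48, and with the period term 32 were higher and none lower. Lcn2, which binds bacterial siderophores, was at 10.24, 9.57, 9.88, 8.55 and 8.37 log2 RPKM in S4 and at −0.06, −0.47 and −0.18 in C4. It had the largest rise among the named genes, with a log2 fold change of 9.18 ± 0.64 (SE; 582-fold, adjusted p = 2.4e-18).

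Serum amyloid A proteins, which join high-density lipoprotein in the acute phase, stood next to it. Saa2 was at 13.89, 13.54, 13.79, 12.68 and 12.69 in S4 and at 4.24, 5.11 and 3.59 in C4, a log2 fold change of 8.98 ± 0.70. Saa1 differed by 7.81 ± 0.66 and Saa3, the form made outside hepatocytes as well, by 6.22 ± 0.88. Saa1 and Saa2 are near-identical copies between which reads may be split, and together they took 0.803 to 1.71% of each S4 library and 0.002 to 0.008% of each C4 library. In every one of these genes S4 replicates 1 to 3 were higher than replicates 4 and 5, and C4 replicate 2 was the highest of its group in Saa1, Saa2 and Saa3. The whole acute-phase list took 11.4 to 18.6% of the S4 reads and 3.24 to 5.22% of the C4 reads.

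The metallothioneins, small proteins that bind zinc and copper, rose by a like amount. Mt2 was at 12.28, 11.84, 11.85, 11.76 and 11.77 in S4 and at 3.09, 4.32 and 1.68 in C4, with a log2 fold change of 8.82 ± 0.77, and Mt1 differed by 7.56 ± 0.65. Serpina3n, an inhibitor of serine proteases, was at 12.27, 11.84, 11.67, 11.17 and 11.33 against 6.55, 5.92 and 6.91, and differed by 5.19 ± 0.25. For the metalloreductase Steap4 the S4 livers were at 10.94, 9.86, 10.21, 8.87 and 8.97 and the C4 livers at 3.91, 5.08 and 4.95. A2m, the protease trap alpha-2-macroglobulin, was near the limit of detection in C4 (−5.45, −4.04 and −4.37) and at 4.62, 4.86, 3.95, 1.10 and 1.16 in S4. In A2m the S4 livers fell into the same replicates 1 to 3 and 4 to 5 as above, and both sets lay above all C4 livers.

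Carrier proteins that fall in the acute phase were lower or not called. Of 15 negative acute-phase genes none was higher and 6 were lower, a share close to the 31.0% of all genes, with a median of −0.50. Serpina6, the corticosteroid-binding globulin, was at 4.85, 4.42, 5.10, 5.03 and 5.13 in S4 and at 7.23, 7.24 and 6.80 in C4 (log2 fold change −2.18 ± 0.37). Lower as well were Igfals, the subunit that holds IGFs in the circulation (−1.68 ± 0.27), Ttr, the thyroxine carrier transthyretin (−1.17 ± 0.17), Apoa2 (−1.05 ± 0.15) and Rbp4, the retinol carrier (−0.96 ± 0.11). Albumin (Alb) was at 14.43 to 15.04 in S4 and 14.81 to 15.02 in C4, with a log2 fold change of −0.25 ± 0.18 that was not called, and the groups overlapped.

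**Figure D2:**
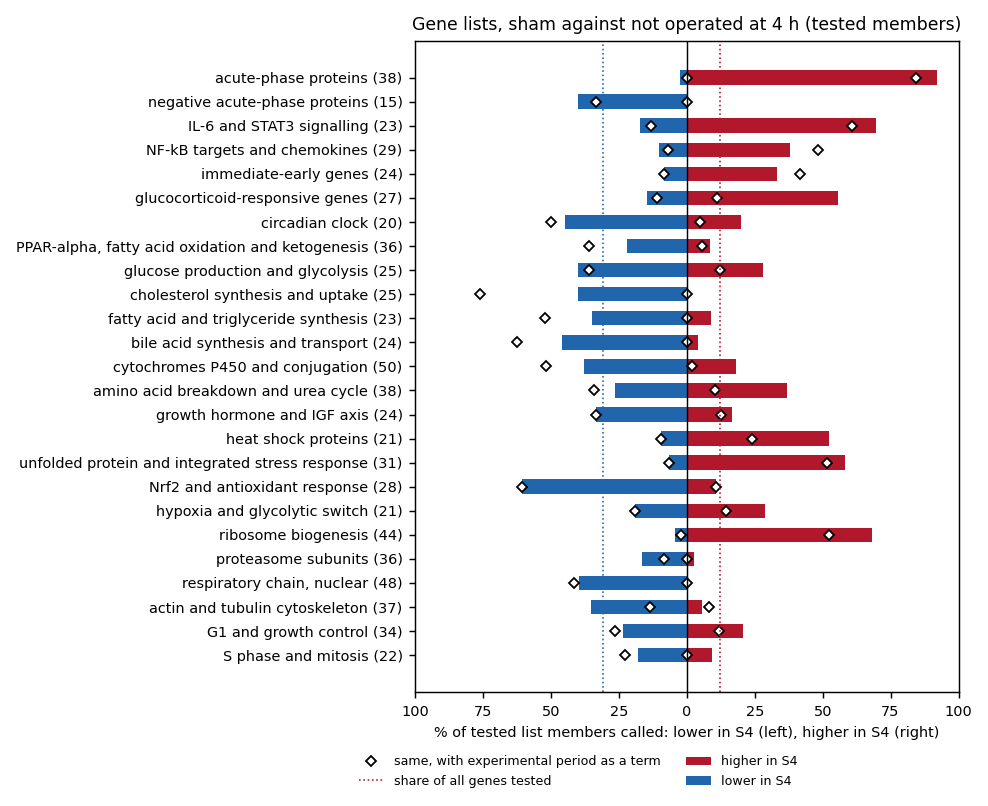
For each gene list, with the number of members tested in brackets, bars give the percentage called higher in S4 (right) and lower in S4 (left), and diamonds the same with experimental period as a term. Dotted lines mark the shares of all genes tested without the term, 12.2% higher and 31.0% lower. For the diamonds, the shares of all genes with the term were 6.53% and 26.6%. The acute-phase bar reaches farthest to the right (35 of 38).

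Genes of IL-6 and STAT3 signalling were mostly higher. Of 23 tested, 16 were higher and 4 lower (median 1.47), and 14 and 3 with the period term. Il6 itself lay below the detection threshold in every library. Socs3, the feedback inhibitor of the receptor kinases, was at 4.46, 4.51, 3.84, 4.82 and 5.17 in S4 and at 1.70, 1.62 and 1.79 in C4 (2.76 ± 0.41). The inhibitor Socs1 differed by 2.45 ± 0.35 and the NF-kB partner Bcl3 by 2.58 ± 0.30. Il1r1, the receptor for IL-1, was at 7.04, 6.44, 6.44, 6.31 and 6.39 against 2.05, 2.94 and 2.95 (3.82 ± 0.44), with replicate 1 apart from the other S4 livers. Nnmt, which methylates nicotinamide, differed by 3.79 ± 0.37. Il6ra, the IL-6 receptor chain, was 1.96 ± 0.39 higher, and 0.29 with the period term (adjusted p = 0.67), so that its difference cannot be told apart from the period. Cish was 2.50 ± 0.65 higher, and 2.54 with the term, where the adjusted p was 0.14.

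The NF-kB list held strong rises and many genes that were not called. Of 29 tested, 11 were higher and 3 lower, and with the period term 14 and 2. Tnf, Csf3 and Traf1 were below the detection threshold in every library. Cxcl1, the neutrophil chemoattractant, was at 7.95, 7.50, 7.25, 7.54 and 7.72 in S4 and at 2.17, 2.91 and 2.26 in C4, a difference of 5.08 ± 0.76, and of 8.24 with the period term. Tifa, an adaptor upstream of NF-kB that stood among the largest rises of all genes, was at 7.81, 7.83, 7.33, 6.99 and 7.00 against 2.16, 1.69 and 2.47 (5.20 ± 0.41). The deubiquitinase Tnfaip3 differed by 2.17 ± 0.43, the adhesion molecule Icam1 by 1.80 ± 0.34 and the inhibitor Nfkbib by 1.10 ± 0.16. The first-line inhibitor Nfkbia was at 3.88 to 4.56 in S4 and 3.97 to 4.21 in C4, and was not called (0.10 ± 0.25). The chemokine Ccl9 (−1.37 ± 0.23) and Tnfaip2 (−1.65 ± 0.36) were lower, the second not with the period term (−1.01, adjusted p = 0.086).

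Immediate-early genes were a mixed list at this hour, with 8 of 24 higher and 2 lower, and 10 and 2 with the period term. Btg2, an antiproliferative gene, was at 5.06, 4.41, 4.40, 4.88 and 4.86 in S4 and at 0.99, 1.35 and 1.06 in C4 (3.45 ± 0.41). Jun, a subunit of AP-1, differed by 1.96 ± 0.39 and the stress factor Atf3 by 2.08 ± 0.44. Fos overlapped between groups, with −1.42 to 0.75 in S4 and −1.79 to −1.25 in C4, and was not called. Fosb was low in all 8 livers and was listed without reads in 2 of the C4 livers. Cyr61, a matricellular protein, was lower in S4 at −1.24 to 0.16 against 2.03 to 2.91 (−2.37 ± 0.37).

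Genes that respond to glucocorticoids gave 15 higher and 4 lower of 27, and this list had fewer calls with the period term, 3 higher and 3 lower. Its unoperated livers varied widely at 0 h, where Fkbp5 stood at 2.02 ± 1.79 (SD, n = 9). Fkbp5, a chaperone of the glucocorticoid receptor, was at 4.97, 4.81, 4.90, 5.13 and 5.15 in S4 and at 0.42, 1.59 and 1.27 in C4, a difference of 3.74 ± 0.54 and of 1.46 with the period term (adjusted p = 0.074). Cdkn1a, which encodes the cell-cycle inhibitor p21, was at 5.51, 5.52, 5.29, 4.63 and 4.27 against −1.54, 0.83 and −1.58 (5.22 ± 0.68), and at 3.29 with the term (adjusted p = 0.057). Lpin1, a phosphatidate phosphatase, differed by 3.50 ± 0.78 (1.74 with the term, adjusted p = 0.26) and the lipid transporter Mfsd2a by 3.04 ± 0.75 (1.09, adjusted p = 0.39). In Tat and Ddit4 the differences of 1.59 and 1.87 came to 0.43 and 0.35. For all of these the groups did not overlap, and surgery and period cannot be told apart.

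Rises of the list that were called in both fits are given here. The members that were lower with the term, 3 of 27, are not named. Gadd45g, a growth-arrest gene, was at 6.66, 6.57, 5.77, 6.77 and 6.71 in S4 and at 2.47, 2.48 and 2.53 in C4 (3.94 ± 0.57, and 4.27 with the term). Igfbp1, which binds IGFs and rises in fasting and stress, differed by 2.85 ± 0.63 (2.04 with the term) and the drug-inducible cytochrome Cyp2b10 by 4.25 ± 0.65 (2.52). Tsc22d3 (GILZ), a direct target of the receptor, was at 1.82 to 2.93 in S4 and 2.49 to 3.03 in C4 and was not called.

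The unfolded protein response, by which the endoplasmic reticulum raises its chaperones when secretory load grows, was higher in S4. Of 31 genes of this and the integrated stress response, 18 were higher and 2 lower (median 0.92), and 16 and 2 with the period term. Hspa5 (BiP), the main chaperone of the compartment, was at 9.91, 9.47, 10.36, 8.99 and 9.40 in S4 and at 7.44, 7.20 and 7.23 in C4 (2.33 ± 0.34, 5.04-fold). Creld2 was at 7.90, 7.73, 8.63, 7.25 and 7.81 against 4.55, 4.24 and 4.26 (3.50 ± 0.54). The co-chaperone Dnajb9 differed by 2.83 ± 0.32, the chaperone Hyou1 by 2.54 ± 0.38 and the secreted factor Manf by 2.09 ± 0.40. Ddit3 (CHOP) differed by 1.08 ± 0.30, while Atf4, its activator, differed by 0.49 ± 0.15, just inside the fold threshold, and by 0.65 with the period term, where it was called.

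Cytosolic heat shock genes were higher in 11 of 21 and lower in 2, and in 5 and 2 with the period term. Bag3, a co-chaperone of HSP70, was at 5.08, 5.26, 5.34, 5.25 and 5.44 in S4 and at 2.98, 3.17 and 2.68 in C4 (2.30 ± 0.22). Hspb8, its small heat shock partner, differed by 1.71 ± 0.19 and the constitutive Hspa8 by 1.68 ± 0.29. Hsph1 was 2.03 ± 0.44 higher and the inducible Hspa1a, which shares reads with its copy Hspa1b, 1.57 ± 0.48, and neither was called with the term (adjusted p = 0.053 and 0.086). Hsf1, the factor that drives these genes, was at 1.96 to 2.57 in S4 and 2.32 to 2.66 in C4 and was not called.

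These chaperone genes were also set beside livers collected 4 h after a partial hepatectomy (X4, n = 3), a comparison added after the data were seen. The labels name X4 replicates 1 to 6, but only replicates 4 to 6 have a column of values. S4 and X4 differed in 1330 of 15396 genes (8.64%), of which 844 were higher in S4 (5.48%). In the unfolded protein and integrated stress list 21 of 31 were higher in S4 than in X4 and none lower, and in the heat shock list 12 of 21 were higher and none lower. Other lists differed from X4 as well. Of 36 PPAR-alpha, oxidation and ketogenesis genes 13 were lower in S4 and none higher. Of 20 clock genes 7 were higher and 2 lower. Of 25 cholesterol genes 6 were higher and none lower, and of 37 cytoskeletal genes 2 were higher and 7 lower. Hspa5 stood at 7.79, 7.27 and 7.75 in X4, where S4 was at 8.99 to 10.36 and C4 at 7.20 to 7.44 (S4 minus X4 2.02 ± 0.34, adjusted p = 1.5e-05). For Creld2 the X4 livers were at 5.14, 4.42 and 5.25 (S4 minus X4 2.92 ± 0.54), for Manf at 4.65, 3.97 and 4.61 (2.08 ± 0.40) and for Hsph1 at 2.09, 1.01 and 1.30 (2.32 ± 0.44). Ddit3 was at 0.11, 0.12 and 0.78 in X4, below all S4 and C4 livers.

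In the acute-phase list, by contrast, 1 of 38 was higher in S4 than in X4 (Crp) and 1 lower (Itih3), and Lcn2 stood at 9.24, 8.98 and 9.65 in X4, within the range of S4. The X4 livers carry replicate numbers 4 to 6, which by the same assumption place them in the period of S4 replicates 4 and 5. With those 2 S4 livers alone, 875 genes were called against X4 (5.68%; 603 higher in S4, 3.92%), and 15 of the 31 stress genes and 8 of the 21 heat shock genes were higher. Hspa5 then differed by 1.59 and Creld2 by 2.58. Lcn2, at 8.55 and 8.37 in these S4 livers, lay below all X4 livers, and its difference of −0.83 was not called.

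**Figure D3:**
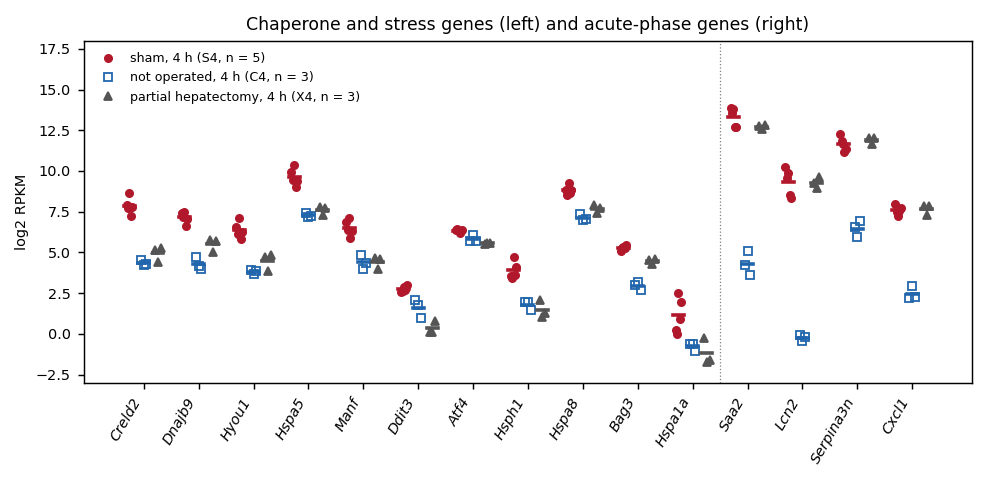
Log2 RPKM in each S4 liver (circles), C4 liver (squares) and X4 liver (triangles), with lines at the group means, for chaperone and stress genes on the left of the dotted line and acute-phase genes on the right. In Hspa5 the S4 livers (8.99 to 10.36) lie above both other groups, whereas in Lcn2 the S4 and X4 livers lie together above C4.

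Genes of the antioxidant response were mostly lower. Of 28 Nrf2 and antioxidant genes, 17 were lower and 3 higher, with the same counts under the period term and 13 lower and 4 higher with the libraries scaled to the same median. Nfe2l2, which encodes Nrf2, was at 2.82 to 3.13 in S4 and 3.94 to 4.09 in C4 (−1.07 ± 0.16), while its inhibitor Keap1 was not called. Among its targets the heme oxygenase Hmox1 (1.81 ± 0.38) and the thioredoxin reductase Txnrd1 (1.63 ± 0.14) were higher, and the aldehyde dehydrogenase Aldh3a2 was lower (−1.58 ± 0.28). Osgin1 was at 3.07, 4.02, 4.98, 5.42 and 5.86 in S4 and at 6.93, 7.49 and 6.81 in C4, a difference of −2.39 ± 0.55 that was −1.30 and not called with the term (adjusted p = 0.40).

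Hypoxia and glycolytic-switch genes were higher in 6 of 21 and lower in 4, and in 3 and 4 with the term. Pfkfb3, an activator of glycolysis, was at 4.30, 3.17, 2.88, 3.63 and 3.99 in S4 and at −0.87, −1.04 and −0.15 in C4 (3.81 ± 0.49), and lactate dehydrogenase Ldha differed by 1.20 ± 0.17. Hif1a (0.87 ± 0.14) and Epas1 (0.75 ± 0.15), the oxygen-sensing factors, were higher and came to 0.44 and 0.35 with the term, and the angiogenic factor Vegfa (−1.31 ± 0.25) was lower and came to −0.36 with it.

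Ribosome biogenesis, the making of ribosomal RNA and its assembly in the nucleolus, was higher in 30 of 44 genes and lower in 2 (median 0.74), and in 23 and 1 with the period term. Nop58, a core protein of box C/D particles that modify ribosomal RNA, was at 5.11, 4.93, 5.00, 4.48 and 4.54 in S4 and at 2.23, 2.71 and 2.34 in C4 (2.33 ± 0.21). Heatr1, of the small-subunit processome, was at 2.76 to 3.02 against 0.73 to 0.86 (1.93 ± 0.14, adjusted p = 4.8e-18). The assembly factors Tsr1 (1.92 ± 0.18) and Rrp12 (1.59 ± 0.17) were higher too. The polymerase I subunits Polr1a (0.74 ± 0.14) and Polr1b (0.56 ± 0.13) moved less and were not called with the term. Of 36 proteasome subunits 1 was higher and 6 lower, both shares under those of all genes. Psma1 and Psma2 were not called, and the immune forms Psmb10 (−0.96 ± 0.17) and Psme1 (−0.86 ± 0.14) were lower.

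The clock genes of S4 livers stood apart from those of the same hour. Of 20 clock genes 4 were higher and 9 lower, and 1 and 10 with the period term. Dbp, a clock output gene, was at −1.27, −0.94, 0.20, −0.20 and 0.44 in S4 and at 5.01, 3.06 and 5.52 in C4, the largest fall among the named genes (−4.48 ± 0.34, 22.3-fold lower, adjusted p = 4.1e-17). At ZT2 the unoperated livers were at −1.98 ± 0.73 (SD, n = 9), so that C4 lay 5.50 above C0 and S4 lay 1.02 above it. At 10 h after sham surgery Dbp stood at 4.43 ± 0.16 (n = 3), close to the level of C4. Its paralog Tef was at 1.46 to 2.70 in S4 and 2.80 to 3.90 in C4 (−1.26 ± 0.25), and Per3, a repressor, differed by −1.89 ± 0.18. Nfil3, a repressor of Dbp targets with a rhythm opposite to that of Dbp, was at 4.84 to 5.08 in S4 and 2.52 to 3.75 in C4 (1.88 ± 0.21).

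Core members of the loop were less certain. Arntl was at 1.86, 2.23, 1.99, 1.24 and 1.40 in S4 and at 0.69, 1.56 and 0.10 in C4, where C4 replicate 2 fell inside the S4 range, and its difference of 0.86 ± 0.21 came to 0.47 with the term (adjusted p = 0.28). Nr1d1 (REV-ERB alpha), which represses Arntl, was at 3.39 to 4.22 against 4.80 to 5.56 (2.84-fold lower, adjusted p = 0.019). Its difference turned to 0.25 with the period term, and its call was lost without C4 replicate 1 (−1.36) or 3 (−1.41). Clock was 0.63 ± 0.17 higher and −0.29 with the term. Per1, which glucocorticoids also induce, was higher at 2.02 to 2.45 against −1.58 to 0.44 (2.27 ± 0.52), and was not called with the term (1.54, adjusted p = 0.15). Against X4, S4 was higher in Dbp (1.14 ± 0.34), Tef and Nr1d1 and lower in Arntl.

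**Figure D4:**
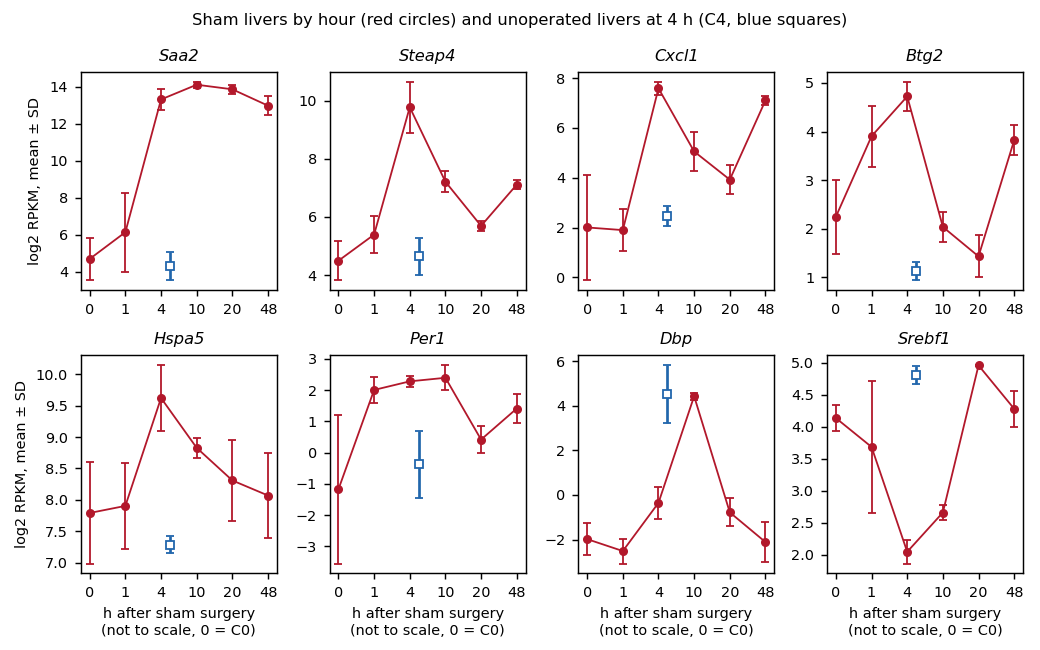
Mean log2 RPKM ± SD of unoperated livers at 0 h (C0, n = 9) and of sham livers at 1 h (n = 6), 4 h (n = 5), 10 h, 20 h and 48 h (n = 3 each), with C4 (n = 3) as a blue square beside 4 h, for 8 genes. Hours differ in experimental period and in time of day, Dbp at 4 h is far below C4 and at 10 h stands at 4.43, and Saa2 is at 13.32 at 4 h and 14.11 at 10 h.

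Over the hours after sham surgery the leading genes took different courses, given here as means with no test between hours. Saa2 was at 6.13 log2 RPKM at 1 h (n = 6), 13.32 at 4 h, 14.11 at 10 h, 13.87 at 20 h and 12.98 at 48 h. Steap4 was highest at 4 h (9.77) and stood at 5.69 at 20 h. Hspa5 went from 7.90 at 1 h to 9.63 at 4 h and 8.83 at 10 h. Atf3 was higher at 1 h (2.17) than at 4 h, as was Ddit4 (4.93). The 10 h and 20 h livers belonged to the assumed period of S4 replicates 4 and 5, and the 48 h livers to that of replicates 1 to 3.

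Single genes of lipid synthesis were lower in S4. In the model of all groups the shares of their lists were not far from the 31.0% of all genes. With the period term both shares were above that of all genes. Of 25 cholesterol genes 10 were lower and none higher, 9 and 1 with the libraries scaled to the same median, and 19 and none with the period term, where 26.6% of all genes were lower. Sc5d, a late enzyme of the pathway, was at 5.76, 5.06, 5.45, 5.81 and 6.00 in S4 and at 7.74, 7.59 and 7.72 in C4 (−2.06 ± 0.29). Insig1, the sterol-sensing anchor, differed by −1.68 ± 0.42 and squalene synthase Fdft1 by −1.64 ± 0.43. Srebf2, the master factor, was not called. Of 23 genes of fatty acid and triglyceride synthesis 8 were lower and 2 higher, 7 and 5 with the same median, and 12 and none with the term. Srebf1, the lipogenic factor, was at 2.01, 1.84, 2.08, 1.96 and 2.33 against 4.65, 4.91 and 4.87 (−2.69 ± 0.39). Mlxipl (ChREBP), which senses glucose, differed by −1.97 ± 0.29 and the acyltransferase Gpam by −1.40 ± 0.28.

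Fatty acid oxidation and glucose genes moved in both directions. Of 36 PPAR-alpha, oxidation and ketogenesis genes 8 were lower and 3 higher, the lower share under the 31.0% of all genes. With the term 13 were lower and 2 higher, where 26.6% of all genes were lower, so that the share lay above that of all genes. The fatty acid carrier Fabp1 was at 11.02 to 11.74 in S4 and 13.31 to 13.56 in C4 (adjusted p = 7.0e-11), and the ketone enzyme Bdh1 at 4.05 to 4.15 against 5.50 to 5.82 (−1.57 ± 0.20). The thiolase Acaa1b (−1.68 ± 0.27) and the thioesterase Acot3 (−1.77 ± 0.55) were lower, while the rate-limiting Cpt1a was not called. Ppara itself was not called (−0.13) but was −1.83 with the term (adjusted p = 0.0022). Of 25 genes of glucose production and glycolysis 7 were higher and 10 lower, and 3 and 9 with the term. The insulin adaptor Irs1 was at −2.72 to −1.13 against 0.74 to 1.46 (−2.18 ± 0.24), and its relative Irs2 was higher by 1.75 ± 0.41 and by 0.40 with the term. The glycogen-targeting subunit Ppp1r3c was lower (−2.33 ± 0.42). Pck1 was not called, and G6pc, the last step of glucose release, was −1.20 ± 0.47 with a call that was lost without C4 replicate 2 (−1.14) or 3 (−0.73).

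Called genes of bile acid metabolism were mostly lower, and those of drug metabolism moved in both directions. Of 24 bile acid genes 11 were lower and 1 higher, 8 and 2 with the same median, and 15 and none with the term. Cyp7a1, the rate-limiting enzyme of bile acid synthesis, was at −2.68, −1.19, −0.35, −0.18 and 1.28 in S4 and at 1.99, 2.55 and 3.23 in C4 (−2.69 ± 0.62), and its repressor Nr0b2 (SHP) was lower too, at 0.51 to 3.62 against 4.97 to 5.58 (−3.20 ± 0.56). The sterol exporters Abcg5 (−1.68 ± 0.24) and Abcg8 (−1.85 ± 0.25) were lower, and Cyp8b1 was not called. Of 50 cytochromes P450 and conjugating enzymes 19 were lower and 9 higher, near the 31.0% and 12.2% of all genes. At the same median 15 were lower and 11 higher. With the term 26 were lower and 1 higher, where 26.6% of all genes were lower and 6.53% higher. Nr1i3 (CAR), the xenobiotic sensor, was at 1.12, 1.78, 2.25, 3.17 and 3.84 against 5.82, 4.83 and 5.41 (−2.85 ± 0.34). Cyp2u1 (−2.68 ± 0.33) and Cyp3a25 (−1.98 ± 0.24) were lower, Cyp1a1 and Cyp1a2 were not called, and Alas1, which opens heme synthesis, was 1.85 ± 0.52 higher, not called with the term (0.52) or without C4 replicate 1 (1.23).

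Amino acid metabolism split. Of 38 genes of amino acid breakdown and the urea cycle 14 were higher and 10 lower, and 4 and 13 with the term. Mat1a, which makes S-adenosylmethionine, was at 10.20 to 10.87 in S4 and 8.62 to 8.81 in C4 (1.86 ± 0.28), and the lysine enzyme Aass at 7.10 to 7.34 against 5.58 to 5.80 (1.57 ± 0.19). The transaminase Got1 differed by 1.69 ± 0.33 (1.04 with the term, adjusted p = 0.060) and the histidine enzyme Amdhd1 was 2.83-fold lower. The urea-cycle enzymes Cps1 (0.67 ± 0.21) and Otc (−0.56 ± 0.15) were −0.10 and −0.49 with the term, and neither was then called.

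The growth hormone and IGF list had 4 higher and 8 lower of 24, and 3 and 8 with the term. The male-typical steroid enzyme Hsd3b5 was at 0.67, 2.08, 2.40, 4.16 and 3.80 in S4 and at 6.96, 6.39 and 7.47 in C4 (−4.24 ± 0.79), and its relative Hsd3b2, with which it may share reads, differed by −3.25 ± 0.36. Ghr, the growth hormone receptor, was at 4.33 to 4.73 against 5.21 to 5.73 (−1.02 ± 0.15). The binding protein Igfbp2 was lower (−1.44 ± 0.26), and the call of Prlr, the prolactin receptor (−0.67 ± 0.29), was lost when S4 replicate 1, 2 or 4 or C4 replicate 1 or 2 was left out (−0.53 to −0.63).

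Other genes stood among the 15 largest differences without belonging to a list. Among the rises were Syt12, a synaptotagmin, at 2.66 to 4.40 in S4 and −4.02 to −3.04 in C4 (5.19 ± 0.25), and Tacc2, a centrosomal coiled-coil protein, at 4.52 to 5.09 against 0.12 to 0.65 (4.21 ± 0.34). Among the falls, the arrestin-domain gene Arrdc3 was at −0.30 to 1.76 against 4.99 to 5.20 (−4.41 ± 0.49) and the lectin Clec2h at −4.72 to −2.07 against 2.32 to 3.38 (−4.22 ± 0.50). G0s2, an inhibitor of triglyceride lipase, differed by −3.38 ± 0.62, the kinase Mapk15 by −3.27 ± 0.32 and the peroxisomal transporter Abcd2 by −3.21 ± 0.39. The protease Prss8 was at −1.88 to −1.34 in S4 and 2.27 to 2.37 in C4 (−3.20 ± 0.28), and the succinate receptor Sucnr1 (−3.19 ± 0.39), the water channel Aqp8 (−3.13 ± 0.49) and the kinase Dclk3 (−3.08 ± 0.38) differed by like amounts. All of these were called with the period term. A pair of small RNA models also met the rule for the largest falls, although the libraries were poly(A)-selected. Mir5125 was at 1.37 to 3.80 in S4 and 5.39 to 5.84 in C4 (−3.29 ± 0.44). A U6 model, 1 of many copies between which reads may be split, was at −1.98, −0.76, −0.43 and −0.00043 in 4 S4 livers, was listed without reads in S4 replicate 2, and was at 3.02 to 3.49 in C4.

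Genes of the respiratory chain were lower or not called. Of 48 nuclear genes of the respiratory chain 19 were lower (39.6%, beside 31.0% of all genes) and none higher. With the period term 20 were lower, where 26.6% of all genes were lower, and none higher. With libraries scaled to the same median 8 were lower, where 3387 of all 15396 genes were lower. Ndufa6, of complex I, was at 6.71 to 7.24 in S4 and 8.01 to 8.17 in C4 (−1.14 ± 0.12), Ndufb10 was at 5.45 to 5.90 against 6.61 to 6.65, and Uqcrq, of complex III, differed by −0.90 ± 0.11. Ndufa2 was not called, and Ndufa1 (−0.51 ± 0.13) was not called without S4 replicate 2 or 3 or C4 replicate 2. Transcripts of the mitochondrial genome took 8.35 to 11.9% of the S4 reads and 15.3 to 17.8% of the C4 reads. Of 37 cytoskeletal genes 2 were higher and 13 lower, and 3 and 5 with the term. Tubb6, a beta tubulin, was at 2.70 to 4.85 against 0.36 to 1.66 (2.36 ± 0.36), and the keratin Krt23 was lower (−1.96 ± 0.30). The difference of Vim, −1.59 ± 0.36, was −0.28 with the term. Actb and Actg1 were not called against C4, and both were lower in S4 than in X4 (S4 minus X4 −1.30 in Actb and −3.02 in Actg1).

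Of 34 genes of G1 and growth control 7 were higher and 8 lower, and 4 and 9 with the term. The stress-induced kinase Plk3 was at 4.65 to 5.58 in S4 and 2.36 to 3.25 in C4 (2.43 ± 0.50), and with the term at 2.29 (adjusted p = 0.053), while its relative Plk2 was lower (−2.09 ± 0.34). Cyclin E1 (Ccne1) differed by 1.46 ± 0.25 and the receptor Egfr by 1.28 ± 0.30. Cyclin D1 (Ccnd1), which opens G1, overlapped between groups and was not called, and Ccnd2 was −0.51 ± 0.21, with a call lost without C4 replicate 1 or 2 or S4 replicate 4. Of 22 genes of S phase and mitosis 2 were higher and 4 lower, and none and 5 with the term. Thymidylate synthase Tyms differed by −0.67 ± 0.17. The helicase subunit Mcm2 (−0.68 ± 0.29) was not called without C4 replicate 2 or 3 or S4 replicate 1 or 2, Mcm3 was not called, and Rrm2 (0.98 ± 0.40) was not called without C4 replicate 1 or 2 or S4 replicate 4 or 5, nor with the term.

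Markers of the liver's cell types were examined beside these lists. In bulk RNA fewer cells of a type and less RNA per cell cannot be told apart. Neutrophil markers were higher in 5 of 12 (S100a8, S100a9, Retnlg, Mmp8 and Cxcr2) and lower in none. Their summed level was 7.43 to 46.1 RPKM in S4 and 1.43 to 5.50 in C4, and the S4 sum is mostly S100a8 and S100a9. Mmp8 (−2.91 to 0.13 in S4) and Cxcr2 (−3.52 to 0.12) lay near the detection threshold. Ngp (0.23), Camp (0.08), Elane (−0.14) and Csf3r (0.54) were not called. The granule marker Ltf, Mmp9 and Ly6g were below the threshold in all 8 livers. With the period term 6 were higher. S100a8, S100a9 and Cd14 are also acute-phase list members, and the part of infiltrating cells in that list was not tested. Monocyte markers were higher in 2 of 6 (Chi3l3 and Cd14), with a sum of 3.45 to 22.7 against 0.91 to 1.82 RPKM. In every S4 liver Cd14 was the highest of the 6, so the S4 sum is mostly that gene. Ly6c2 (−0.07), Ccr2 (−0.22), F13a1 (0.67) and Itgam (0.57) were not called.

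Markers of other non-parenchymal cells varied by type. All 5 B cell markers were lower, with sums of 0.11 to 0.85 RPKM in S4 and 2.63 to 5.00 in C4, and 2 with the period term. Stellate markers were lower in 8 of 11 (37.5 to 58.0 against 83.9 to 96.3 RPKM), and in 7 with the term. Kupffer cell and macrophage markers were lower in 6 of 12 (23.1 to 61.3 against 62.8 to 83.1) and endothelial markers in 6 of 10 (20.8 to 36.5 against 40.2 to 44.4), and with the term in none and 1, or with the same median in 1 and 4. Of the erythroid markers 4 of 5 were lower, all of them globin genes, with sums of 34.2 to 64.7 against 91.7 to 151 RPKM, and 5 of 5 with the term. In these 4 globin genes C4 minus C0 was 1.53 to 2.07, while S4 minus C0 was −0.56 to −0.36 and not called. Of the T and NK, cholangiocyte and mesothelial markers 1 of 5, 2 of 6 and 3 of 5 were lower, and 1 cholangiocyte marker was higher. Of 8 hepatocyte markers, by which the tissue label was checked, 2 were higher (Cps1 and Fgb) and 2 lower (Apoa2 and Ttr), and their sum was 46152 to 57199 RPKM in S4 and 59710 to 60548 in C4. The 8 skeletal muscle markers and 9 of 10 pancreas acinar markers were below the threshold in all 8 livers, as were the adipocyte markers Adipoq, Plin1, Retn and Lep, while 1 of the 2 adipocyte markers tested was lower.

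**Figure D5:**
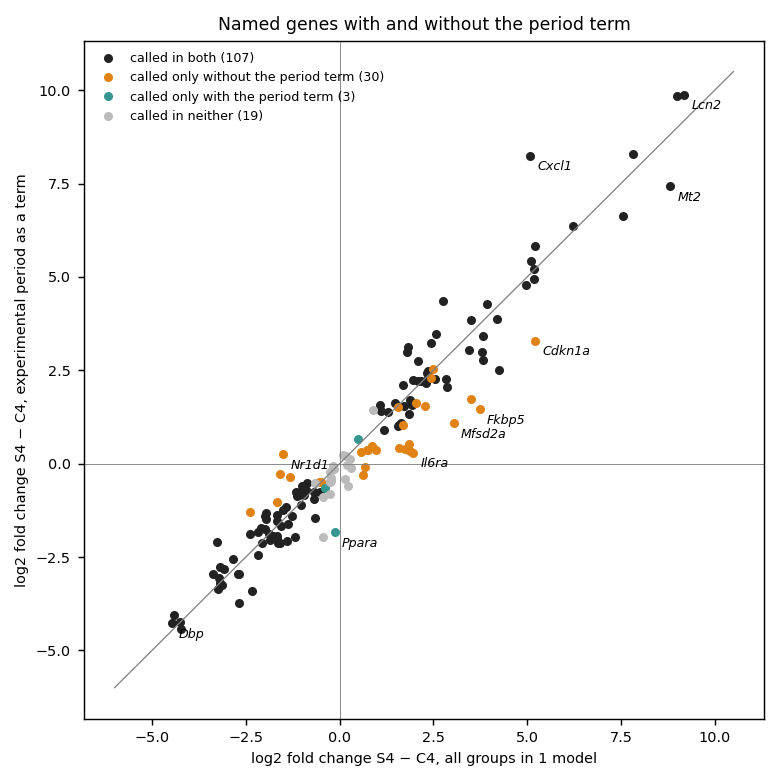
Log2 fold change of S4 against C4 for 159 named genes (the small RNA models are left out), from the model of all groups (horizontal) and from the model with experimental period as a term (vertical), with the line of equality. Of these genes 107 were called in both, 30 only without the term, 3 only with it and 19 in neither, and Nr1d1 lies on opposite sides of 0.

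Over the 159 genes plotted with and without the period term, 73 were higher, 64 lower and 22 not called. The acute-phase genes Lcn2 (9.18 without and 9.88 with the term), Saa2 (8.98 and 9.84) and Saa1 (7.81 and 8.30) were called in both. The glucocorticoid-responsive genes Fkbp5, Cdkn1a, Lpin1 and Mfsd2a lay below the line of equality, as did Il6ra, and Cxcl1 lay above it.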

How the data were processed

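The authors trimmed reads with Cutadapt and prinseq-lite, mapped them to mm9 with TopHat 2.0.13 and Bowtie2, counted them by strand per Ensembl gene with featureCounts, dividing multi-mapped reads among their positions, and deposited log2 RPKM values, with genes without reads listed at −14.29. No spike-in was used, so levels are relative to each library's total and a rise of abundant transcripts lowers all others. The authors' tests on read counts were not used.

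Of 84 columns 80 match 1 labelled sample each, and 4, which carry the name of S4 with replicate numbers that no labelled sample has, match none and were not used. Genes above −1.5 log2 RPKM in at least 1 library were kept (15396 of 37991). Values were compared as log2(RPKM + 0.25), which understates changes of low genes, with limma 3.58.1 in R 4.3.3, in a model of 19 groups with a mean-dependent prior variance, and p values were adjusted by Benjamini-Hochberg over all genes tested. Depth was estimated from the value that 1 read gives. Tables and figures were made with Python 3.11.15, numpy 2.4.6, pandas 2.3.3, scipy 1.17.1 and matplotlib 3.10.9. Libraries of a group differed by 3.28 to 12.4 times counting error, so none was a copy.

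Genes were named by rule: the 15 largest rises and 15 largest falls among called genes with a group mean above 0 and no overlap, up to 6 called members of each list and its first 2 members, Arntl and Nr1d1, and up to 5 list genes brought within 0.5 by the period term. Some of these are not reported here, most of them for length. Members and lists were chosen with earlier results of these data known, and Crp, Itih3 and the single cell type markers were named after their values were seen. The alternatives were other pseudocounts, filters, scalings and fold thresholds, fewer libraries, a period term, S4 of either period, a replicate block, no variance trend and leaving out each liver. The X4 comparison, the period term together with the same median, and the fit of S4, C4 and C0 without that term were added after the data were seen.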

Additional observations from a re-analysis of the deposited data

Results flagged for a closer look

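In 5 of 137 called genes named in the report, 1 of the 5 S4 livers lay apart from the other 4, by a gap to its nearest neighbour of more than 0.71 of the group's range, where chance alone gives about 1 such group in 20. Replicate 1 was the highest in Mt2 (gap 0.812 of the range) and in Il1r1 (0.823), and the lowest in Cyp3a25 (0.771). Replicate 3 was the lowest in Gadd45g (0.799) and replicate 4 in Ccnd2 (0.793). In each of these genes all 5 S4 livers lay on the same side of the 3 C4 livers.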

How the results depend on the processing

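The number of genes called was 6663. It was 4074 with the period term and the libraries scaled to the same median, and 2404 at a fold threshold of 1 log2 unit, which keeps fewer genes by construction. Leaving out 1 liver gave 6293 to 6742, and a pseudocount of 1 gave 4467. Same-numbered S4 and C4 livers did not deviate together (r −0.012, −0.033 and −0.126), so the numbers do not pair the livers, and with replicate number as a block 5473 genes were called. The share of called genes that were higher, 28.3%, was 46.0% with the same median, 49.2% after quantile normalization, 19.7% with the period term and 48.4% with the period term and the same median. It was 31.5% for genes with a mean above 0, 30.0% at a pseudocount of 1, 29.8% at the higher fold threshold and 25.4 to 31.4% with 1 liver left out. The difference in the estimated depth of S4 and C4 was 11.4 to 16.8 M reads with 1 liver left out, where the exact permutation test of the smaller groups cannot pass the threshold. Among single genes, signs turned with the period term in Nr1d1 (0.25), Clock (−0.29) and Cps1 (−0.10), and with the period term and the same median in Nr1d1 (0.56), Clock (−0.0023) and Vim (0.012). The cause of these changes was not tested. Of the 159 named genes, 30 lost their call, 3 of them with a change of sign, and 3 gained one with the period term, and 7 lost and 2 gained one with the same median. C4 holds 3 livers of 1 period, so that period and operation cannot be told apart without C0.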

Other observations

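Differences were also counted by the gene types of the deposited table. Of 12746 protein-coding genes tested 12.7% were called higher in S4 and 32.8% lower. Among 328 lincRNA genes 4.88% were higher and 50.3% lower, and among 201 antisense genes 6.47% were higher and 48.3% lower, with median log2 fold changes of −0.54 and −0.55. With the period term 18 of 328 lincRNA genes were higher and 103 lower, and 8 of 201 antisense genes were higher and 65 lower. Of 12746 protein-coding genes 910 were then higher and 3747 lower. The lincRNA and antisense shares called lower thus lay closer to that of protein-coding genes than without the term. Median log2 fold changes with the term were −0.43 in lincRNA, −0.36 in antisense and −0.28 in protein-coding genes. Without the term, 19.9% of 1085 pseudogenes were higher and 21.2% lower, and those with near-identical copies may share reads with their parent genes. The difference between gene types was not tested. The 10 most abundant genes took 16.2 to 20.2% of the reads in S4 and 22.3 to 23.4% in C4.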
